A study of Homo sapiens with 19 samples.

Results

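The nuclear-encoded subunits of oxidative phosphorylation were followed through every measurement of a study of stress granules (SGs), the cytoplasmic RNA and protein bodies that form when translation stalls, in SH-SY5Y, a human neuroblastoma cell line. They were taken by gene name, as the NDUF A, B, C, S and V, UQCR, COX4 to COX8A and ATP5F1, ATP5M and ATP5P genes of GENCODE, which gave 83 of the 19942 rows of the gene tables. Of these, 39 belong by name to complex I, 9 to complex III, 16 to complex IV and 19 to complex V, and 762 of the 256980 transcripts in a separate transcript table are theirs. Poly-A RNA was sequenced from cells given a negative control siRNA (siCtrl), an siRNA to G3BP1 (siG3BP1) or an siRNA to G3BP2 (siG3BP2), with 1 siRNA for each. RNA was also sequenced from the lysate cleared by centrifugation (Total) and from SG cores pulled down with an antibody to G3BP1 (SG). Both came from cells exposed to sodium arsenite (AS). RNA depleted of rRNA came from untreated cells and from cells after 1 h of AS, and eCLIP, which sequences RNA crosslinked to an immunoprecipitated protein, was run for G3BP1 and G3BP2 in untreated and in AS-treated cells. The label of the rRNA-depleted AS library gives 500 μM AS, whereas those of the eCLIP, siRNA, Total and SG libraries, untreated eCLIP included, read 50 mM. The methods describe the lower dose and no AS step for the siRNA libraries. Each RNA-seq condition had 1 library and each eCLIP group had 2.

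Oxidative phosphorylation passes electrons from NADH and succinate through complexes I to IV to oxygen and uses the proton gradient so built to make ATP at complex V, the ATP synthase. Most subunits of these complexes are encoded in the nucleus, translated in the cytosol and imported into mitochondria, while the mitochondrial genome encodes a small hydrophobic set, which was not analysed here. Several subunits of complexes IV and V exist as isoforms from separate genes, with ubiquitous forms beside forms best known from muscle, testis, lung or hypoxic cells. Neurons draw most of their ATP from this pathway.

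Cell identity and the knockdown targets were checked first. The sympathetic neuroblast genes PHOX2A, HAND2, GATA3, ISL1, DBH and CHGA lay between 105 and 874 TPM (a level scaled for transcript length and library) in siCtrl, TH at 0.304 TPM, PTPRC of leukocytes and PECAM1 of endothelium at 0 and EPCAM of epithelium at 0.194 TPM. COL1A1, a fibroblast collagen, was at 12.6 TPM. G3BP1 was at 18.7 TPM in siCtrl, 5.996 in siG3BP1 and 16.5 in siG3BP2. G3BP2 was at 38.1, 39.4 and 11.4 TPM in the same libraries. Both targets were therefore lowest in the library named for them. The TPM of the table sum to between 623955 and 735927 per library, which gives no read depth, while eCLIP libraries, with the log undone, hold from 4268911 to 26179736 in all, replicate 2 being the shallower in every group. TPM are shares of a library, so less of an RNA per cell and fewer cells holding it cannot be told apart.

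The subunit mRNAs were abundant in every library but SG. Together they made up 2.45% of the TPM of the table in siCtrl, 2.55% in siG3BP1, 2.69% in siG3BP2 and 2.94% in Total, against 0.366% in SG. The median member stood at 119 TPM in siCtrl, 137 in siG3BP1, 136 in siG3BP2, 141 in Total and 18.1 in SG, where the median of all 19942 genes was 3.45, 3.26, 2.99, 1.89 and 11.1 TPM. The subunits thus lay far above the typical gene in 4 libraries and close to it in SG. In siCtrl, 78 of 83 members passed 1 TPM and 44 passed 100 TPM. COX6A1, a small complex IV subunit, was highest at 1321 TPM, followed by COX6B1 at 869 TPM and COX8A at 836 TPM. COX7A1, COX7B2 and ATP5MGL were lowest and were listed at or near 0 in all 5 libraries.

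**Figure D1:**
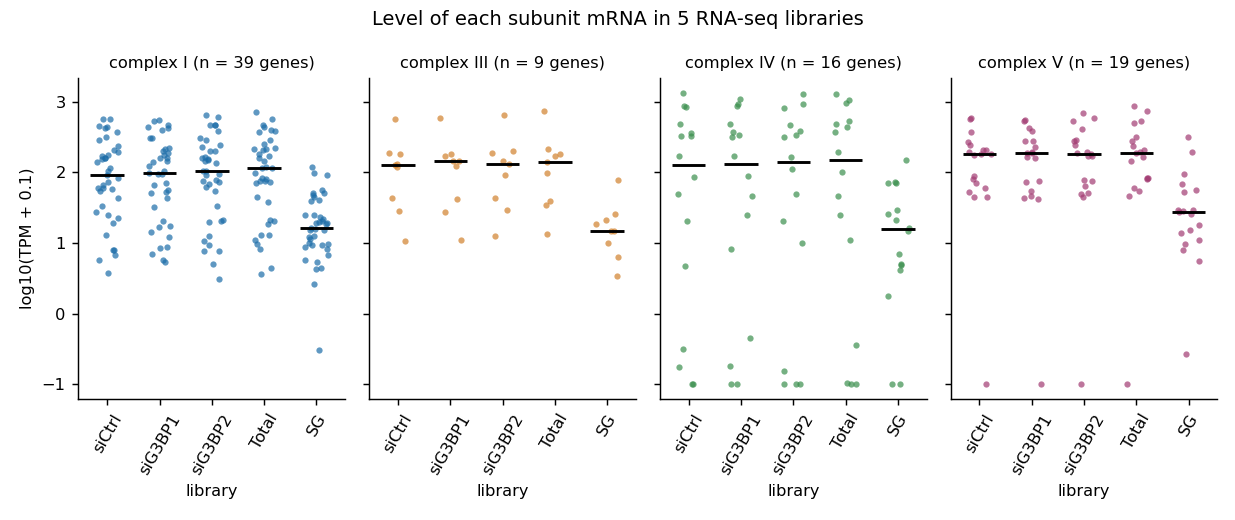
Each point is 1 subunit gene, placed by its log10(TPM + 0.1) in the siCtrl, siG3BP1, siG3BP2, Total and SG libraries, with 1 panel per complex and a bar at the median. The medians of the first 4 libraries lie close together in each panel and that of SG lies below them, for example 189 TPM in Total and 27.1 TPM in SG for complex V.

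Within a complex the mRNA levels were uneven. Among members above 1 TPM in siCtrl, the highest and lowest differed 155-fold in complex I, 53.6-fold in complex III, 287-fold in complex IV and 13.3-fold in complex V. The lowest were the isoform NDUFA4L2 (3.67 TPM), UQCRHL, a near copy of UQCRH (10.5), the isoform COX4I2 (4.61) and the read-through gene ATP5MF-PTCD1 (43.8). The ranges depend on these genes. Next lowest were NDUFS1 (5.59 TPM), UQCRFS1 (28.4), COX7B (20.02) and ATP5PB (44.4). TPM is a level per length, so these are differences between genes in RNA per nucleotide of transcript. Complex V was the most even of the 4.

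Isoform pairs were strongly one-sided. COX4I1, the ubiquitous form of the subunit that regulates complex IV, was at 473 TPM in siCtrl, and COX4I2, the form known from lung and hypoxic cells, at 4.61 TPM. COX6A1 stood at 1321 TPM against 0.216 TPM for its muscle counterpart COX6A2. COX6B1 stood at 869 TPM against 0.0774 TPM for the testis form COX6B2. The ubiquitous member thus carried nearly all of the mRNA in each pair. COX7A2 was at 360 TPM and the related COX7A2L, which joins complexes III and IV into supercomplexes, at 49.8 TPM, while the muscle form COX7A1 was at 0. COX7B was at 20.02 TPM and COX7B2 at 0. NDUFA4, named after complex I but found in complex IV, was at 160 TPM and NDUFA4L2, its hypoxia-inducible relative, at 3.67 TPM. The 3 genes for the c subunit of the ATP synthase rotor were more alike, with ATP5MC2 at 206 TPM, ATP5MC1 at 196 TPM and ATP5MC3 at 53.3 TPM. In SG the order within each of the pairs was the same except for NDUFA4 and NDUFA4L2, at 4.38 and 5.35 TPM. None of these comparisons has a replicate.

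The comparison of SG with Total asks which mRNAs collect in the granule cores. A gene was called enriched when (SG TPM + 1) / (Total TPM + 1) exceeded 2 with SG above 1 TPM, and depleted below 0.5 with Total above 1 TPM. Of 80 members that reached 1 TPM in either library, 67 were depleted, 3 enriched and 10 neither. Among the 13560 genes of the table that did so, 9.45% were depleted and 62.9% enriched. The median log2 fold was -2.91 for the 77 members above 1 TPM in both libraries and 1.34 for all genes so expressed, and 76 of the 77 members lay under that all-gene median. The most common direction of the table was thus the rare one among the subunits.

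The lowest folds came from small subunits. NDUFA4 fell from 206 TPM in Total to 4.38 TPM in SG, a 38.5-fold difference on TPM + 1 and the 9th lowest of the 13560 genes. NDUFA11, an accessory subunit of the membrane arm of complex I, went from 467 to 15.1 TPM (29.01-fold). UQCRH, the hinge protein of complex III that contacts cytochrome c1, went from 737 to 25.6 TPM (27.8-fold). In SG these 3 genes lay on either side of the table median of 11.1 TPM, while in lysate they were far above it. COX7A2 went from 474 to 21.1 TPM and COX6C from 102 to 4.85 TPM. ATP5MJ, a small membrane subunit of the ATP synthase, went from 189 to 9.503 TPM. ATP5PF, coupling factor 6 of its stalk, went from 503 to 29.3 TPM. UQCRB, a small complex III subunit near the ubiquinone site, went from 96.6 to 6.18 TPM. All of these were depleted at more than 10-fold.

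A few subunits did not follow. NDUFS1, an iron-sulfur core subunit in the NADH-oxidising part of complex I, was the clearest, going from 4.37 TPM in lysate to 24.4 TPM in the cores, a log2 fold of 2.24. The remaining enriched members were isoforms scarcely present in lysate, COX6B2, listed near 0 in Total and at 6.83 TPM in SG, and COX6A2 with 0.255 and 1.68 TPM, a log2 fold of 1.09. Among the members called neither were NDUFA5, NDUFA9, NDUFA10, NDUFV2, NDUFV3, NDUFA4L2, ATP5F1A, ATP5F1B and the read-through gene ATP5MF-PTCD1. ATP5F1A and ATP5F1B, the alpha and beta subunits that form the catalytic hexamer of the ATP synthase, stood at 83.8 and 536 TPM in Total and at 56.3 and 319 TPM in SG. ATP5F1B was the member highest in SG. NDUFA10, an accessory subunit with a kinase-like fold, was slightly higher in SG, at 18.5 and 24.9 TPM.

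**Figure D2:**
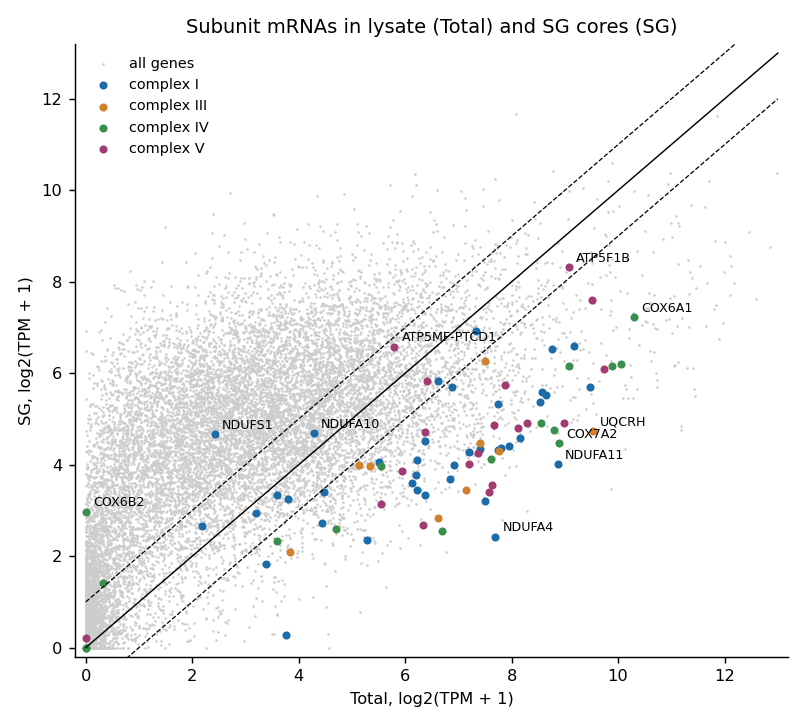
Each point is 1 gene, with log2(TPM + 1) in Total on the horizontal and in SG on the vertical axis, all genes in grey and the 83 subunits coloured by complex. The solid line marks equal levels and the dashed lines the 2-fold thresholds; 67 subunits are depleted, and NDUFS1 is the subunit above 10 TPM that lies over the upper line.

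By role, the large catalytic subunits were less depleted than the small accessory ones. Of the 7 core subunits of complex I, 4 were depleted and 1 enriched with a median log2 fold of -1.07, whereas 27 of the other 32 complex I members were depleted with a median of -2.92. The 3 core and redox subunits of complex III, UQCRC1, UQCRC2 and UQCRFS1 (the Rieske protein), had folds between -1.37 and -1.14, and its 6 small subunits a median of -3.59. In complex V the 5 subunits of the F1 head had a median of -2.14, the c ring -2.41, the peripheral stalk -2.69 and the 5 small membrane subunits -3.64. In complex IV, which has only small nuclear subunits, 12 of 14 members were depleted with a median of -3.58 among those above 1 TPM in both. Each of the 3 mixed complexes thus had its lowest median in the small subunits.

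Coding length moved with this order. The members are short, with a median coding sequence of 384 nt and a median transcript of 744 nt in GENCODE, against 1272 and 2891 nt over all genes. Across the 77 members the log2 fold correlated with log10 coding length with r = 0.70, and across 10938 genes with r = 0.569. With transcript length r was 0.561 across the members and 0.705 across all genes. These are given as descriptions since the genes share their libraries. With a line fitted over all genes, 74 of 77 members lay below it, at a median of 2.43 log2 units under it (median residual -2.43), and with transcript length in place of coding length 72 lay below, at a median residual of -1.77. NDUFS1 lay on the line, with a residual of 0.20. Among coding sequences of up to 400 nt, 37 of 41 members were depleted (90.2%) against 38.8% of all 894 genes of that size. Between 400 and 800 nt it was 25 of 26 members (96.2%) against 24.4%, and above 800 nt 5 of 13 (38.5%) against 3.53%. The sign of the difference from the table was the same in each class. A higher level in siCtrl also went with a lower fold across the members, with r = -0.67 on log2(TPM + 1), and across all genes with r = -0.507.

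**Figure D3:**
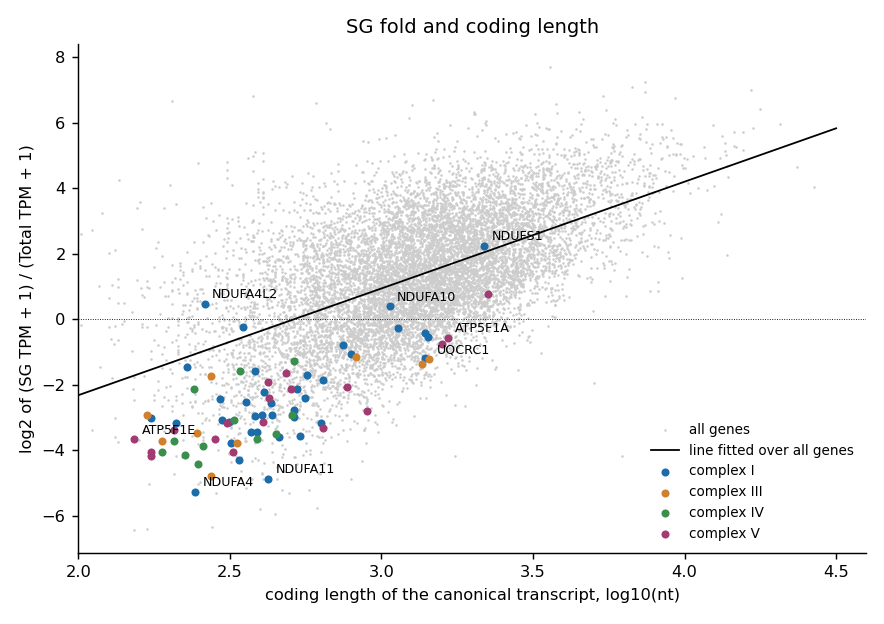
The horizontal axis is log10 of the coding length in nt of the canonical transcript and the vertical axis the log2 fold of SG over Total on TPM + 1, for genes above 1 TPM in both, with the line fitted over all 10938 genes in black. Subunits are coloured by complex and 74 of 77 lie below the line.

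Other gene groups placed these values in context. The cytosolic ribosomal protein mRNAs, likewise short and abundant, were depleted for 79 of 82 with a median log2 fold of -4.05 and a median residual of -3.96 from the coding-length line. Mitochondrial ribosomal proteins were depleted for 47 of 77 with a median of -1.43 and a residual of -1.60. Subunits of oxidative phosphorylation thus lay between these groups in both measures. The nuclear-encoded components that the name rule leaves out behaved unevenly: SDHB and SDHD of complex II, CYC1 (cytochrome c1), NDUFAB1 and ATP5IF1 (the ATP synthase inhibitor) were depleted, SDHA, SDHC and CYCS (cytochrome c) were neither, and DMAC2L was enriched. Of 50 assembly factors, 18 were depleted, 11 enriched and 21 neither, with a median of -0.40. Of 10 regulators of mitochondrial biogenesis above the minimum, 7 were enriched and none depleted, with a median of 2.39. Among them NRF1, a transcription factor of many respiratory genes, was at 5.95 TPM in Total and 51.7 in SG. TFAM, which packages mitochondrial DNA, was at 7.25 and 42.3 TPM. The share of regulators enriched was near the 62.9% of all genes, and their median residual from the coding-length line was 0.39.

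The median SG/Total ratio over genes above 1 TPM in both libraries was 2.78, so the split depends on where the centre is set. With that ratio set to 1, 35.3% of all genes were enriched and 25.6% depleted, and of the subunits 1 of 79 was enriched and 74 depleted. NDUFS1 and COX6A2 then fell short of the threshold. Without the members that share at least 20% of their exonic bases with another gene, read-through genes and UQCRHL, which is nearly identical to UQCRH, 49 members were depleted and 1 was enriched, COX6B2 and COX6A2 being among those left out. There is 1 library of each kind and no replicate check.

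The knockdown libraries ask whether the mRNAs depend on G3BP1 or G3BP2. A ratio to siCtrl above 2 or below 0.5, with more than 1 TPM in the higher library, was called. In siG3BP1, 1 of 78 members was higher and 0 were lower, against 2.53% higher and 3.69% lower of 12280 genes. In siG3BP2, 4 were higher and 1 lower, against 2.43% and 5.62% of 12229 genes. The medians over members were 0.00 and 0.04 on the log2 scale, with quartiles from -0.13 to 0.11 in siG3BP1 and from -0.04 to 0.15 in siG3BP2. Most subunits thus had nearly equal TPM in the 3 libraries. Over all genes the medians were -0.09 and -0.12, and 53 and 67 of the 78 members lay above them.

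A few members stood apart. ATP5MC2, a c-ring gene, was at 206 TPM in siCtrl, 381 in siG3BP1 and 591 in siG3BP2, ratios of 1.85 and 2.87. ATP5MK, a small membrane subunit of the ATP synthase also called DAPIT, was at 88.0, 162 and 187 TPM. In both of these genes siCtrl was the lowest library. COX4I2 was at 4.61, 8.10 and 9.99 TPM, and its call in siG3BP2 was lost when 1 TPM was added to both values. NDUFA5, an accessory subunit of the matrix arm, was the member below the threshold in siG3BP2, at 27.2, 14.1 and 10.7 TPM. Among members above 10 TPM, the next lowest ratios were those of NDUFS3 (0.685) and NDUFC1 (0.744) in siG3BP1 and of UQCRB (0.76) and NDUFS3 (0.842) in siG3BP2. These lay inside the thresholds.

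Both knockdown comparisons share the siCtrl library, and Total gives a further library to set beside it. Total differs from siCtrl in siRNA, in lysis, in cell fraction and, by the methods, in AS, and these cannot be told apart. It is a supernatant left after centrifugation, and the methods do not state poly-A selection for Total or SG. For ATP5MC2 Total stood at 728 TPM, for ATP5MK at 196, for COX4I2 at 11.02 and for NDUFA5 at 11.01 TPM. These 4 genes were thus nearer to the knockdown libraries than to siCtrl in Total. Against siCtrl, 4 of 78 members were higher in Total and 1 was lower, the 4 genes just named being among them, while 2.37% of 12173 genes were higher and 27.2% lower. The member median was 0.16 and that of all genes -0.41 on the log2 scale, and 76 of 78 members lay above the latter. With the all-gene median ratio of 0.75 set to 1, the calls became 6 higher and 0 lower among members and 5.53% higher and 15.9% lower over all genes, and NDUFA5 lost its call. After NDUFA5, the lowest ratios among members above 10 TPM were those of NDUFS7 (0.716) and NDUFC1 (0.767). Which library of the 4 is unusual for these genes was not tested.

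**Figure D4:**
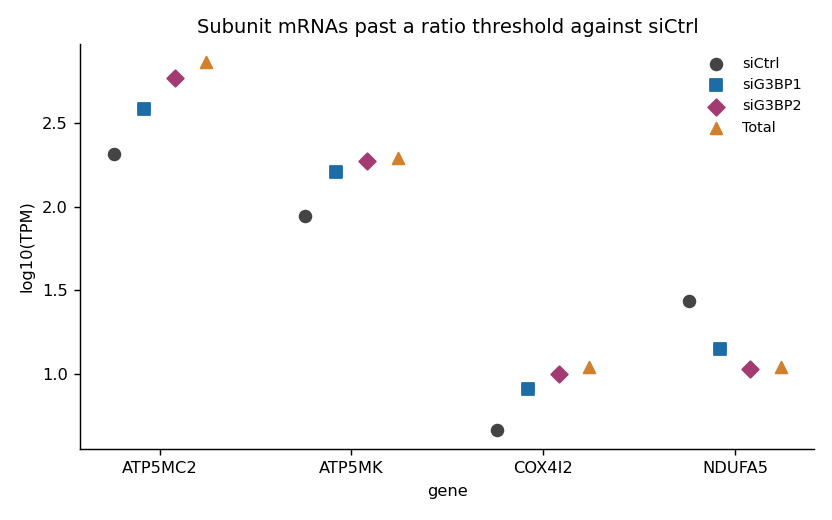
For 4 subunit genes past a ratio threshold against siCtrl, log10(TPM) is shown in siCtrl, siG3BP1, siG3BP2 and Total, with 1 library per symbol. For ATP5MC2 the siCtrl point lies at 206 TPM and the other libraries between 381 and 728 TPM.

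The rRNA-depleted libraries offer another view of the order of levels. Their values, multiplied by transcript length, were whole multiples of a step for 97.3% and 97.2% of transcripts within 0.02 reads, which gives libraries of 13291958 reads in untreated and 11281587 in AS-treated cells. Reads were counted in full for each transcript of a gene, so levels are compared between genes only on the canonical transcript, per length. On that scale ATP5MC2 ranked 4th of 82 members in untreated cells, beside rank 25 of 83 in siCtrl and ranks 15, 8 and 6 in siG3BP1, siG3BP2 and Total. ATP5MK ranked 25th, beside rank 46 in siCtrl and ranks 35, 31 and 31. NDUFA5 ranked 68th, beside rank 66 in siCtrl and ranks 70, 72 and 74. For ATP5MC2 and ATP5MK the untreated rRNA-depleted rank was thus above the rank in siCtrl. Over 82 members the Spearman correlation of these values was 0.882 with siCtrl, 0.903 with siG3BP1, 0.908 with siG3BP2 and 0.911 with Total, values that share most of their genes and are given as a description.

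The untreated and AS rRNA-depleted libraries ask what 1 h of AS changes. With the transcript values of a gene summed, 3 of 76 members were called higher and 0 lower after AS, against 7.68% and 1.43% of 12693 genes. The median AS/untreated ratio was 1.12 for 74 members and 1.21 for all genes, and 55 of the 74 members lay under the latter. Most subunits thus had ratios slightly under that of the typical gene. The values sum to 1039719 in the untreated and 1216810 in the AS library, so the 2 are not on the same scale. With the all-gene median ratio of 1.21 set to 1, 3 of 75 members were higher (4.0%) and 0 lower. Over all genes, 4.25% were then higher and 2.12% lower. NDUFS1 rose from a summed value of 7.39 to 37.1. Its canonical transcript went from 50 to 154 reads, a ratio of 3.63 with an exact 95% interval of 2.62 to 5.1. That interval covers counting error only. NDUFS1 was not higher in Total, at 4.37 TPM, than in the poly-A siCtrl, at 5.59 TPM, libraries that differ in more than AS. Its transcripts did not move alike. A short transcript of 563 nt annotated for nonsense-mediated decay went from 4 to 80 reads, another of 569 nt from 4 to 53, and ENST00000432169 and ENST00000457011 from 29 to 26 reads each.

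UQCRC2, a core protein of complex III, went from 1.26 to 17.0 in the summed value and from 4 to 59 reads on the canonical transcript (ratio 17.4, interval 6.44 to 65.9). In the poly-A siCtrl and in Total the same gene stood at 42.8 and 39.6 TPM, rank 63 of 83, whereas in the untreated rRNA-depleted library its canonical transcript ranked 74th of 82. Its level there was therefore low before AS. The remaining call, NDUFA3, rests on at most 2 reads per transcript. When the transcript with the largest untreated value stood for the gene, 1 member was called, and NDUFS1 kept a log2 ratio of 2.04 on that scale. Among members with a summed value above 10, NDUFA5 had the next largest ratio, at 1.47. ATP5PD of the peripheral stalk (0.838), NDUFA7 (0.858) and NDUFB9 (0.92) had the smallest. NDUFA6, COX6A2, COX7A1 and COX7B2 were listed at 0 in both libraries, although NDUFA6 was at 7.82 TPM in siCtrl. NDUFS3 was listed at 0 for its canonical transcript in both and had 59 and 77 reads on a transcript annotated with no defined coding sequence.

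In eCLIP the subunits had lower values than the typical gene. Each value is the log10 of 1 plus a whole number and was higher for longer genes. Whether it counts intron reads or is corrected for size-matched input is not stated, so it is not read as an amount of bound mRNA. The median member lay between 1.04 and 1.89 over the 8 libraries and the median gene between 1.70 and 2.47. In each library the members lay below the table, also per kb of gene, at 5.78 against 9.74 in the deeper untreated G3BP1 library and 5.81 against 10.4 in the deeper untreated G3BP2 library. Of the 83 members, 48 were above 0 in all 8 libraries (57.8%) against 82.6% of all genes. Across members the value correlated with log10 gene length with r between 0.672 and 0.766 and with log10(TPM + 1) with r between -0.137 and 0.013, as descriptions over genes of the same libraries. NDUFA10 had the highest mean, 3.65 over 8 libraries, in a gene of 133294 nt. COX7B2 was next at 3.06, in a gene of 174419 nt that was listed at 0 TPM in every library but Total, where it was near 0. NDUFA5 followed at 2.79 in 20908 nt. NDUFA6 was at 0 in all 8 libraries, NDUFA1 in 7 and ATP5MGL in 5.

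AS did not move any subunit past the adjusted threshold. limma called 0 of 77 members for G3BP1 and 0 of 77 for G3BP2, against 0.0% of 18888 genes for G3BP1 in either direction and 0.0105% of 19035 higher and 0.0% lower for G3BP2. At an unadjusted p under 0.05, 2 members were lower for G3BP1 (2.6% of those tested, against 0.244% of all genes), and 1 was higher and 4 lower for G3BP2 (6.49% against 0.835%). Between the proteins limma called 0 members in untreated cells (76 tested, 0 unadjusted), 0 after AS (77 tested, 0 unadjusted) and 0 in the interaction of protein and treatment (81 tested, 0 unadjusted), where 0.0% of 19004, 18934 and 19259 genes were called in either direction. With the replicate number as a block, 6 members were higher for G3BP2 in untreated cells at an unadjusted p under 0.05 (7.89%, against 2.92% of all genes), and 5 were higher and 1 lower after AS (7.79% against 3.07%), with 0 called by limma after adjustment. The unequal library totals given above enter this spread, since the values in these fits were not scaled. With every library scaled to the same total, limma called 0 members and 0 genes for AS in either protein. At an unadjusted limma p under 0.05, that setting gave 4 higher and 4 lower members for G3BP1 and 3 higher and 5 lower for G3BP2. These were 10.4% of members for each protein, against 2.56% and 3.34% of all genes.

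For 5 members, chosen after their values were seen, the AS libraries of both proteins lay wholly on 1 side of the untreated ones. ATP5F1C, the gamma subunit that forms the rotor shaft of the ATP synthase, had G3BP1 values of 2.71 and 2.22 untreated and 1.11 and 1.04 after AS, and G3BP2 values of 2.7 and 1.93 untreated and 1.11 and 1.49 after AS. COX7A2 had G3BP1 values of 2.36 and 2.04 untreated and 1.38 in both AS libraries, and G3BP2 values of 2.55 and 2.23 untreated and 1.26 and 1.36 after AS. For both genes every AS library lay below every untreated one. NDUFB4, a membrane-arm accessory subunit, had untreated values from 1.54 to 2.07 and AS values from 0 to 1.32 over both proteins. UQCR11, a small complex III subunit, went the other way, with untreated values from 0.48 to 0.70 and AS values from 1.11 to 1.98. NDUFS8, an iron-sulfur subunit of complex I, did likewise, with 0.30 to 1.72 untreated and 1.83 to 2.20 after AS. The differences for G3BP2 were -1.19 ± 0.43 (SE) for NDUFB4 (unadjusted p = 0.0059, limma, adjusted p = 1.0), -1.08 ± 0.43 for COX7A2 and 1.08 ± 0.43 for UQCR11, and for G3BP1 -1.39 ± 0.63 for ATP5F1C. NDUFA4 had G3BP2 values of 2.12 and 1.23 untreated and 1.28 and 0 after AS, a difference of -1.03 ± 0.43, and these overlap. ATP5F1B had G3BP1 values of 1.57 and 1.00 untreated and 0 in both AS libraries, a difference of -1.29 ± 0.56. ATP5F1D, the delta subunit, had 1.80 and 1.63 untreated and 0 and 1.11 after AS for G3BP1. None of these passed the correction.

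Counted over the list, all 4 AS libraries lay above all 4 untreated ones for 2 members (2.41%, against 0.251% of all genes). They lay below for 3 members (3.61%, against 0.516% of all genes). Within G3BP1, 4 members lay wholly above (4.82%, against 0.807% of all genes) and 5 wholly below (6.02%, against 2.15%). Within G3BP2, 6 lay above (7.23%, against 1.44%) and 5 below (6.02%, against 3.19%). These shares exceed the background, and the members' values are also lower than those of the table, as given above. The part of low values in these counts was not tested. The 4 libraries of a treatment are also not separate observations. Replicate differences of the proteins correlated over genes at 0.555 in untreated cells and 0.501 after AS. With every library scaled to the same total, 5 members lay above (6.02%, against 2.53% of all genes) and 3 below (3.61%, against 2.81%). ATP5F1C, COX7A2, NDUFS8 and UQCR11 were among these members but not NDUFB4.

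**Figure D5:**
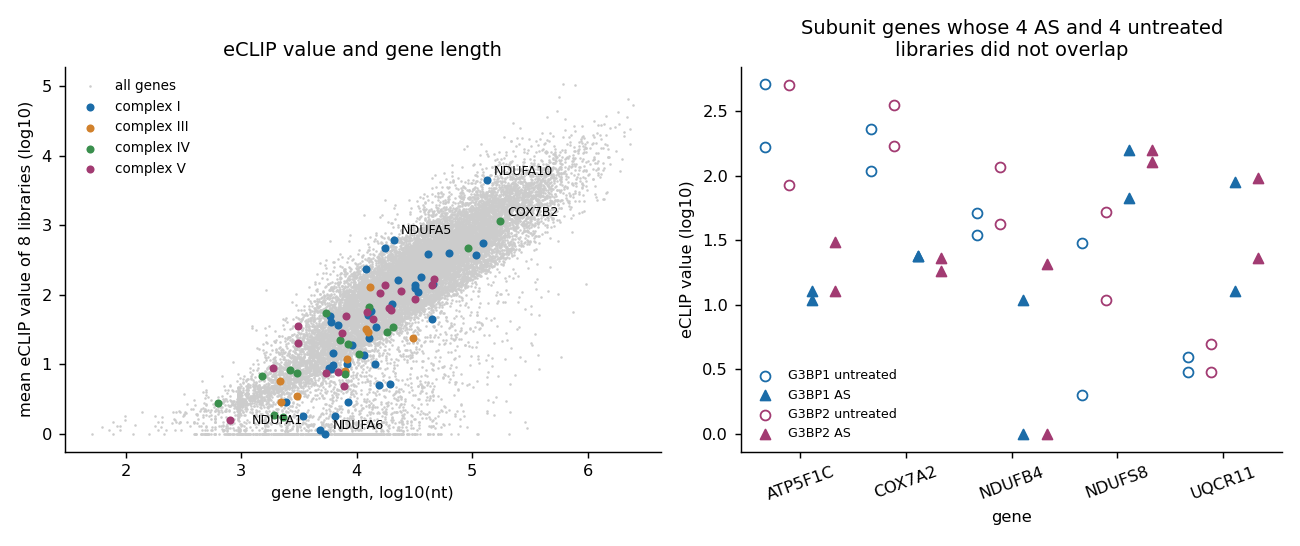
Left, the mean eCLIP value of 8 libraries on a log10 scale against log10 gene length in nt, with all genes in grey and subunits coloured by complex. Right, the log10 eCLIP value in each library for the 5 subunit genes whose 4 AS libraries (triangles) all lay above or all below their 4 untreated libraries (circles), for example 1.04 to 1.49 against 1.93 to 2.71 for ATP5F1C.

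The motif that the study named for its eCLIP peaks reads, in transcript letters, CCAGCCTGG or CCAGGCTGG. It was searched on the sense strand of the canonical GENCODE transcripts and occurred in 17 of 83 members (20.5%) and in 28.0% of all genes, at 0.379 and 0.149 matches per kb. NDUFS1 held 9 matches, NDUFV3 held 8 and ATP5F1A held 7, all of them in the 3′ untranslated region. The member density pools all member transcripts, so these 3 weigh heavily in it. None of these 3 members was depleted in SG, and their canonical transcripts are long, at 11660, 5725 and 5761 nt. Other members with matches were depleted, among them COX7B and NDUFB5 with 3 matches each and NDUFA4 with 2. NDUFA9, also with 3 matches, was neither. A link of matches to the SG calls was not tested. Alu repeats, common in human transcripts, contain these letters, and repeats were not annotated here. The eCLIP table has 1 value per gene, so no signal was placed at these matches. NDUFS1 had a mean of 1.65, NDUFV3 of 2.04 and ATP5F1A of 2.06 in eCLIP over the 8 libraries, so these 3 did not head the members by eCLIP value.

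Promoters were compared as a feature the name rule did not use. Promoter sequences of RefSeq (GRCh38.p14, 250 bases before to 50 after the start) were matched for 65 of 83 members. The core of the NRF1 site, TGCGCA, was present in 16 of them (24.6%) and in 8.42% of all 27305 promoters. CCGGAAG, a core bound by ETS factors such as GABPA, was present in 27.7% and 10.7%, searched on both strands, AAGATGGC, a core of the YY1 site, in 15.4% and 3.03%, and TATAAA in 10.8% and 12%. The first 3 motifs, whose factors are known regulators of respiratory genes, were thus more frequent in the members' promoters than in all 27305. Promoters of genes with similar levels were not set beside them. A match is a description of letters, not of binding. The NRF1 cores of members named above that lie wholly upstream of the start are shown, with the core in capitals.
COX6A1 (chr12:120437886-120437915, plus strand): agggcacacgcaTGCGCAcgaaggaaacgg
NDUFB4 (chr3:120596170-120596199, plus strand): gcacttcgcgcaTGCGCAtatcaccgagcg
NDUFS7 (chr19:1383712-1383741, plus strand): gcggcccccacgTGCGCActccgatgacct
UQCRC1 (chr3:48609788-48609817, minus strand): ggtggactgatgTGCGCAgggactggcggc
NDUFA6 (chr22:42090918-42090947, minus strand): tgtagatgagcaTGCGCAgcacccaccgtt
These genes ranged in siCtrl from 7.82 TPM for NDUFA6 to 1321 TPM for COX6A1.

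The same lists were counted in the knockdowns. Of the 9 components outside the name rule, 1 was lower in siG3BP1, ATP5IF1, at 57.7 TPM in siCtrl, 9.38 in siG3BP1 and 66.5 in siG3BP2. It was at 65.0 TPM in Total. ATP5IF1 was thus low in siG3BP1 alone of these 4 libraries. Of 50 assembly factors, 0 were called in siG3BP1, and in siG3BP2 COA1, a complex IV and I assembly factor, was higher (11.2 TPM in siCtrl, 13.9 in siG3BP1, 59.8 in siG3BP2, 60.6 in Total). NUBPL, which inserts iron-sulfur clusters into complex I, was lower (2.42, 2.14, 0.398 and 0.224 TPM in the same order). None of 9 regulators of biogenesis above the minimum was called in either knockdown. Of 82 cytosolic ribosomal protein genes, 1 was higher and 3 lower in siG3BP1 and 5 were higher in siG3BP2, and of the mitochondrial ones 1 was higher in each. Over all genes, 2.53% were higher and 3.69% lower in siG3BP1, and 2.43% and 5.62% in siG3BP2. The lists were not tested against the subunits.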

How the data were processed

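The authors aligned the RNA-seq reads to GRCh38.p13 with HISAT2, computed TPM with StringTie and GENCODE release 41, and deposited TPM per gene for siCtrl, siG3BP1, siG3BP2, Total and SG. For eCLIP they deposited a log10 value per gene and library. The deposited values of the rRNA-depleted transcript table were treated as a signal per length, since they behave as reads per length. Depth is unknown for the TPM libraries. Members and gene lists were chosen with earlier results of these data known. Genes were matched to GENCODE 44 (19910 of 19942) for lengths and positions. RNA-seq comparisons rest on 1 library per condition, so they are folds with no p-value. eCLIP was tested with limma 3.58.1 (R 4.3.3) on the deposited log10 values with Benjamini-Hochberg adjustment at 0.05, leaving out genes with fewer than 2 values over 0 in a comparison. Those p-values measure the spread between libraries, which may be technical. The limma step was tested on data simulated from the G3BP1 libraries, with 200 of 18888 genes changed. With unequal library sizes it called 0 of these genes at a log10 change of 1 and 1 at a change of 2. With equal sizes it called 60 and 161. A count of 0 in the unscaled values therefore tells little about changes of these sizes. Named members were the extremes per complex and comparison above 10, isoform pairs, the highest and lowest levels and the smallest eCLIP p. Members of the core lists, the SG calls and the non-overlapping eCLIP values were named after their values were seen. Size-matched input libraries (4 of 19 samples) were not analysed here. Some items are not reported here.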

Additional observations from a re-analysis of the deposited data

How the results depend on the processing

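The depletion of the subunits from SG kept its direction under every alternative run, with 49 to 74 members depleted against 67. The SG-enriched count of 3 became 1 with a minimum of 10 TPM, with the all-gene median ratio set to 1 and without overlapping members. At a fold of 1.5, siG3BP1 gave 4 higher and 1 lower, and the rRNA-depleted AS comparison 5 higher. With no minimum, siG3BP1 gave 2 higher and 1 lower, siG3BP2 3 lower, Total 3 lower and rRNA-depleted AS 1 lower. Total gave 0 lower with the median ratio set to 1, against 15.9% of all genes, and rRNA-depleted AS 1 higher with the largest untreated transcript. Apart from the median-ratio setting, shares of all genes under these changed rules are not given here. Those counts therefore describe the members alone and cannot be set against a background. The causes were not tested. The overlap and canonical-transcript alternatives were chosen after seeing the data. Below the level of counts, COX6A2 and NDUFS1 in SG and NDUFA5 in Total lost their calls with the median ratio set to 1, and COX4I2 in siG3BP2 with 1 TPM added.

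The labels do not say that eCLIP replicate numbers mark a shared batch. Same-numbered libraries deviated together. Between the proteins within a treatment the correlations were 0.555 (untreated) and 0.501 (AS), and between treatments they were 0.124 to 0.194. With the replicate number as a block limma called 0 members for AS in either protein. At an unadjusted limma p under 0.05, 4 were higher and 7 lower for each, 14.3% of members. The shares over all genes were 2.54% for G3BP1 and 2.73% for G3BP2. Leaving out each library in turn gave 0 to 0 called members, and the smallest adjusted p of a member was 0.0578, between the proteins without untreated G3BP1 replicate 1, and 0.0597 for AS, without G3BP2 AS replicate 1. With 2 libraries per group of unequal depth, a count of 0 does not show that no member changed.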
